A study of Homo sapiens with 6 samples.

Results

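The expression of 10 genes of cell adhesion and epithelial-mesenchymal transition was examined in the H9 line of human embryonic stem cells during differentiation to nephron progenitors. They were the cadherins CDH1, CDH2, CDH6 and CDH11, the epithelial adhesion molecule EPCAM, and the transcription factors SNAI1, SNAI2, ZEB1, ZEB2 and TWIST1. The genes were chosen by name, 10 of the 60107 gene IDs in the count table, and all 10 had enough counts to be tested. All cells came from that 1 line, went through the same differentiation protocol and were collected at the end of day 9. In 1 group the medium held glutamine, and in the other glutamine was absent from the start of the differentiation, with 3 libraries in each. The labels do not say whether the libraries came from separate cultures, so p-values measure the spread between these libraries, which may be technical.

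Cadherins are calcium-dependent adhesion proteins that join neighbouring cells and bind catenins on the cytoplasmic side. E-cadherin, the product of CDH1, is typical of epithelia, and N-cadherin, the product of CDH2, of mesenchymal and neural cells. In the developing kidney the nephron forms by the opposite of an epithelial-mesenchymal transition: mesenchymal progenitors aggregate and become an epithelial vesicle. The factors of the SNAI, ZEB and TWIST families are known as repressors of CDH1, directly or through one another, and drive the change from epithelial to mesenchymal state in embryos and tumours.

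Libraries held 78220507 to 84746566 counts, and 22613 genes were tested. Levels are given as CPM, the count of a gene scaled to a common library total, and values of replicates 1, 2 and 3 are listed in that order. Replicate 1 with glutamine stood apart from its group. Across genes, which are not independent replicates, its log2 CPM had a Pearson r of 0.9908 to 0.9927 with those grown without glutamine, but of only 0.9758 and 0.9762 with replicates 2 and 3 of its own group. Whether this library matches its label was not tested, and every mean with glutamine (n = 3) includes it. Fold changes of the 10 genes and calls in the adhesion and transition gene lists are therefore given with and without it. The library was singled out from these same data, so p-values and calls of the fit without it are descriptions. Such p-values can be too small. The cells carried nephron progenitor markers: the summed level of a list of 10 was 878 to 979 CPM with glutamine and 907 to 1134 CPM without. Of these 10, 4 were higher and 6 lower without glutamine, so the sum does not show that their levels were alike. Without replicate 1 with glutamine edgeR called 4 of them higher and 6 lower (22.3% and 19.0% of all genes).

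Without glutamine, the epithelial adhesion genes CDH1 and EPCAM were higher and the factors SNAI1 and ZEB1 lower in every library than in any library with glutamine. CDH2 and CDH11 were also higher in every library without glutamine, by less. None of these differences passed an adjusted p of 0.05 with edgeR's quasi-likelihood test and all 6 libraries. At that threshold 0 of the 10 genes were called, against 0.00442% of all genes, while 7 of the 10 had an unadjusted p under 0.05, against 29.7% of all genes. At an adjusted p under 0.1 edgeR called 5 of the 10, against 14.5% of all genes. CDH2, CDH11 and EPCAM were higher (7.3% of all genes) and SNAI1 and ZEB1 lower (7.23%). The groups did not overlap for 6 of the 10, or 60%, against 34.2% of all genes, with 4 higher (17.3% of all genes) and 2 lower (16.9%).

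The call turned on the library that stood apart. Without replicate 1 with glutamine, edgeR called 9 of the 10 genes at an adjusted p under 0.05, against 41.3% of all genes. In that fit CDH1, CDH2, CDH6, CDH11 and EPCAM rose (22.3% of all genes), SNAI1, SNAI2, ZEB1 and TWIST1 fell (19.0%), and ZEB2 was not called. DESeq2 with all 6 libraries called 6 of the 10, against 14.0% of all genes. CDH6, CDH11 and EPCAM were higher (7.54% of all genes), and SNAI1, ZEB1 and TWIST1 lower (6.44%). The median log2 fold change of the 10 genes was 0.03, beside 0.00 over all genes tested, since 5 were higher and 5 lower.

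**Figure D1:**
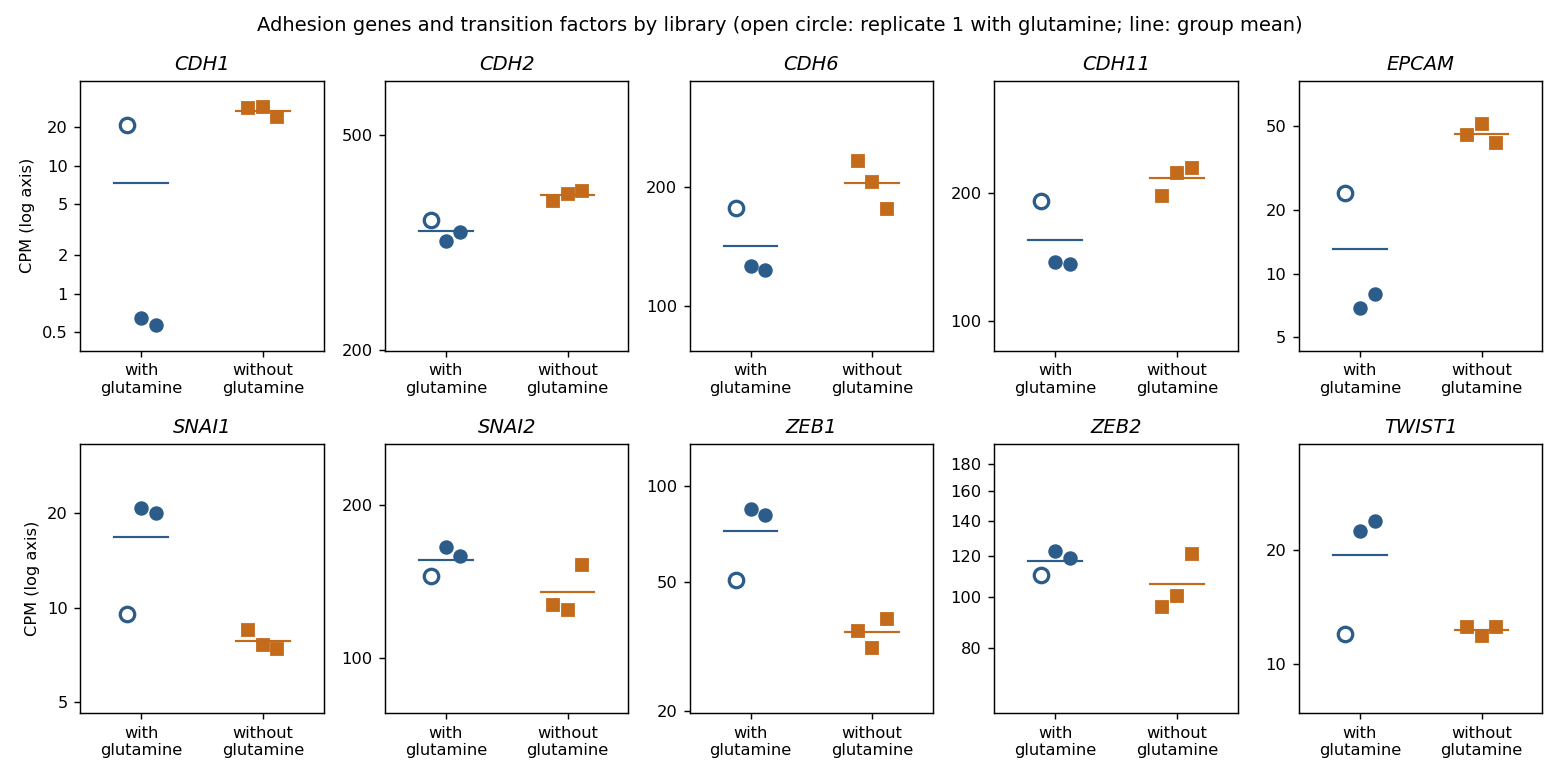
Level of each of the 10 genes in each library, in CPM on a log axis; circles are libraries with glutamine, squares libraries without it, the open circle is replicate 1 with glutamine and the lines are group means. In the CDH1 panel the open circle, at 20.9 CPM, lies near the squares, at 23.9 to 28.6 CPM, and far from the other 2 circles, at 0.64 and 0.573 CPM.

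CDH1 (ENSG00000039068) lies on chromosome 16 at 68737225 to 68835548 on the plus strand of GRCh38. With glutamine its level was 20.9, 0.64 and 0.573 CPM, and without it 28.0, 28.6 and 23.9 CPM. These values rest on 1698, 50 and 45 counts with glutamine and on 2409, 2245 and 1874 without. Replicate 1 with glutamine was close to the libraries without glutamine, and the other 2 libraries of its group had almost no CDH1. The means were 7.38 ± 11.7 CPM with and 26.8 ± 2.6 CPM without (SD, n = 3), so the spread with glutamine was larger than its mean. The log2 fold change was 1.86 (edgeR adjusted p 0.299, SE 1.13, DESeq2 adjusted p 0.404). Without replicate 1 with glutamine it was 5.47 (edgeR adjusted p 3.09e-08, SE 0.16). RNA of the whole culture was measured, so fewer cells with CDH1 and less CDH1 RNA per cell cannot be told apart, here or for the other genes.

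EPCAM (ENSG00000119888; chromosome 2, 47345158 to 47387601, plus strand) encodes a membrane glycoprotein of simple epithelia that embryonic stem cells carry as well. Its level was 24.2, 6.89 and 8.03 CPM with glutamine and 45.4, 51.2 and 41.8 CPM without. In the group with glutamine, replicate 1 lay between the others of its group and the libraries without glutamine. The means were 13 ± 9.68 and 46.1 ± 4.76 CPM (SD, n = 3), a log2 fold change of 1.82 (edgeR adjusted p 0.0762, SE 0.46). DESeq2 gave an adjusted p of 0.0168. Without replicate 1 with glutamine the log2 fold change was 2.63 (edgeR adjusted p 3.19e-07).

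CDH2 (ENSG00000170558; chromosome 18, 27950966 to 28177446, minus strand) had the highest level per kilobase of transcript of the 10 in every library. It was at 349, 319 and 330 CPM with glutamine and at 377, 389 and 394 CPM without. The groups did not overlap, and the gap was small beside the level: 332 ± 15.0 against 387 ± 8.25 CPM (SD, n = 3). The log2 fold change was 0.22 (edgeR adjusted p 0.093, SE 0.06, DESeq2 adjusted p 0.0968). N-cadherin RNA was thus not lower in the libraries where E-cadherin RNA was higher. Without replicate 1 with glutamine the log2 fold change of CDH2 was 0.26 (edgeR adjusted p 0.00998).

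CDH6 (ENSG00000113361; chromosome 5, 31193750 to 31329146, plus strand) encodes K-cadherin, which is known from the early nephron and the proximal tubule. It was at 177, 126 and 123 CPM with glutamine and at 232, 206 and 176 CPM without. Replicate 1 with glutamine was level with the lowest library without it, so the groups overlapped. For CDH6 the log2 fold change was 0.53 (edgeR adjusted p 0.101, SE 0.17, DESeq2 adjusted p 0.0254), and 0.72 without that replicate (edgeR adjusted p 0.000583).

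CDH11 (ENSG00000140937; chromosome 16, 64943753 to 65126112, minus strand) encodes OB-cadherin, a cadherin of mesenchymal cells. It was at 191, 137 and 136 CPM with glutamine and at 197, 223 and 229 CPM without. The groups were apart by a narrow margin, that between replicate 1 of each. The log2 fold change was 0.48 (edgeR adjusted p 0.0926, SE 0.14, DESeq2 adjusted p 0.0238), and 0.66 without replicate 1 with glutamine (edgeR adjusted p 0.000153). The mesenchymal cadherin therefore had the same direction as CDH1 and EPCAM.

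The balance of the E- and N-cadherin transcripts was compared as the log2 ratio of CDH1 to CDH2, with 0.5 added to each CPM. It was -4.03, -8.13 and -8.27 with glutamine and -3.73, -3.74 and -4.02 without. Replicate 1 with glutamine lay just below the range of the libraries without glutamine, and the other 2 were far below it. The difference of the means was 2.98 (exact two-sided permutation test over libraries, p = 0.1), and 0.1 is the smallest p that 3 against 3 libraries allow. Per kilobase of transcript, CDH2 exceeded CDH1 18.8-fold, 562-fold and 651-fold with glutamine and 15.2-fold, 15.3-fold and 18.6-fold without. CDH1 made up 5.05%, 0.178% and 0.153% of the sum of both per kilobase with glutamine, and 6.17%, 6.13% and 5.10% without. CDH2 was thus the more abundant of the pair in all 6 libraries.

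SNAI1 (ENSG00000124216; chromosome 20, 49982999 to 49988886, plus strand), which encodes the zinc-finger repressor Snail, was at 9.53, 20.8 and 20.0 CPM with glutamine and at 8.46, 7.63 and 7.37 CPM without. All libraries with glutamine were above all those without, replicate 1 only just. The means were 16.8 ± 6.29 and 7.82 ± 0.57 CPM (SD, n = 3), a log2 fold change of -1.10 (edgeR adjusted p 0.0784, SE 0.28, DESeq2 adjusted p 0.0012). Without replicate 1 with glutamine it was -1.38 (edgeR adjusted p 3.54e-06).

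SNAI2 (ENSG00000019549; chromosome 8, 48917604 to 48921740, minus strand) encodes the related repressor Slug. It was at 145, 165 and 158 CPM with glutamine and at 127, 124 and 152 CPM without, and the groups overlapped. The log2 fold change was -0.21 (edgeR adjusted p 0.195, SE 0.10, DESeq2 adjusted p 0.291). Without replicate 1 with glutamine it was -0.26 (edgeR adjusted p 0.0444). The difference between SNAI1 and SNAI2 in their fold changes was not tested.

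ZEB1 (ENSG00000148516; chromosome 10, 31318495 to 31529814, plus strand) encodes a zinc-finger and homeodomain repressor of epithelial genes. It was at 51.1, 84.3 and 81.0 CPM with glutamine and at 35.4, 31.4 and 38.6 CPM without. The groups did not overlap, with replicate 1 with glutamine between the others. The means were 72.1 ± 18.3 and 35.1 ± 3.63 CPM (SD, n = 3), a log2 fold change of -1.04 (edgeR adjusted p 0.068, SE 0.19). That was the smallest adjusted p of the 10 genes, and DESeq2 gave 3.91e-05. Without replicate 1 with glutamine the log2 fold change was -1.23 (edgeR adjusted p 6.17e-06).

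ZEB2 (ENSG00000169554; chromosome 2, 144364364 to 144524583, minus strand) is the paralogue of ZEB1. It was at 110, 123 and 119 CPM with glutamine and at 96.1, 100.4 and 121 CPM without. The groups overlapped, and ZEB2 was the gene of the 10 that no fit called. Its log2 fold change was -0.15 (edgeR adjusted p 0.349, SE 0.10, DESeq2 adjusted p 0.501). Without replicate 1 with glutamine it was -0.19 (edgeR adjusted p 0.150). Per kilobase of transcript, ZEB2 was at 1.23, 0.828 and 0.835 times the level of ZEB1 with glutamine and at 1.54, 1.82 and 1.78 times that level without. The order of the 2 genes depends on the transcript length used: with the merged length of all annotated exons the mean ratio was 0.586 with and 1.04 without glutamine, in place of 0.964 and 1.71. The ratio was higher in every library without glutamine than in any with it on either length.

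TWIST1 (ENSG00000122691; chromosome 7, 19020991 to 19117672, minus strand) encodes a basic helix-loop-helix factor of mesoderm and neural crest. It was at 12.0, 22.4 and 23.9 CPM with glutamine and at 12.5, 11.8 and 12.5 CPM without. Replicate 1 with glutamine lay among the libraries without it, so the groups overlapped. The log2 fold change was -0.66 (edgeR adjusted p 0.131, SE 0.24, DESeq2 adjusted p 0.0446), and -0.91 without that replicate (edgeR adjusted p 2.14e-05).

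**Figure D2:**
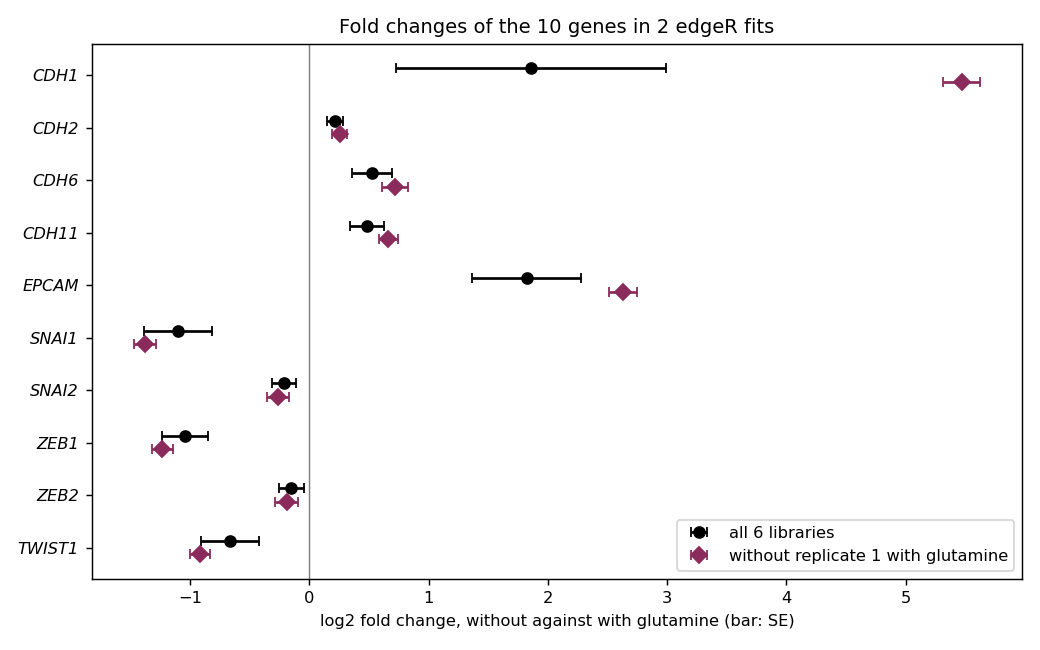
Log2 fold change of each gene, without against with glutamine, from edgeR with all 6 libraries and without replicate 1 with glutamine; bars are standard errors. CDH1 moves from 1.86 to 5.47 when that library is left out, while the direction of all 10 genes is the same in both fits.

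ZEB1 and ZEB2 are the best known targets of the miR-200 family, 5 microRNAs that pair with sites in the 3′ untranslated region (UTR) of both RNAs and are themselves repressed by ZEB proteins. The mature microRNAs are shown because the family falls into 2 seed groups, which differ at 1 base of the seed (bases 2 to 8, in capitals). Sequences are from RefSeq on GRCh38.p14.
hsa-miR-200b-3p: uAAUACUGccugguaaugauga
hsa-miR-200c-3p: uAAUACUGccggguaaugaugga
hsa-miR-429: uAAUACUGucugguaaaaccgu
hsa-miR-200a-3p: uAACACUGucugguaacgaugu
hsa-miR-141-3p: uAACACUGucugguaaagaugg

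A search of the longest annotated 3′ UTR of each gene for the 7 bases that pair with either seed, CAGTATT or CAGTGTT, found 9 matches in ZEB1 and 9 in ZEB2. The ZEB1 matches were 6 of the first kind and 3 of the second, and the ZEB2 matches 5 and 4. Of 19128 genes, 0.0314% had at least 9. Among genes with a 3′ UTR of like length the share was 0.0338% for ZEB1 and 0.138% for ZEB2, whose UTR is longer. CDH6 had 2 matches, CDH11 and SNAI2 had 1 each, and the other 5 genes had 0. A match of letters is not a measured site. One match of each kind in each gene is shown, in GENCODE 29 transcripts on GRCh38, with the match in capitals.
ZEB1, chr10:31527621-31527642, plus strand: gttttatcttatCAGTATTatc
ZEB1, chr10:31528034-31528055, plus strand: aatcatcagaatCAGTGTTtgt
ZEB2, chr2:144389050-144389071, minus strand: actaccatacatCAGTATTttt
ZEB2, chr2:144389234-144389255, minus strand: aaaaattttgtaCAGTGTTaag

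Mature microRNAs were not measured by these mRNA libraries, but a few counts fell on the miR-200 loci. The precursors MIR200A, MIR200B and MIR429, which lie together on chromosome 1, had 3, 0 and 0 counts in sum with glutamine and 13, 8 and 2 without. MIR200C and MIR141 on chromosome 12 had 0 counts in all 6 libraries. AL390719.2 (ENSG00000272141; chromosome 1, 1169357 to 1170343, plus strand) starts 269 bases past the end of MIR429 and lies almost wholly inside the RefSeq host gene MIR200BHG, and was singled out after its values were seen. It had 24, 0 and 0 counts with glutamine and 37, 36 and 26 without. Replicate 1 with glutamine was near the libraries without glutamine, and the other 2 of its group had 0 counts, where a count of 0 allows up to 3 counts. The log2 fold change of AL390719.2 was 2.00 (edgeR adjusted p 0.165, SE 0.84), and its adjusted p without replicate 1 with glutamine was 0.000162.

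**Figure D3:**
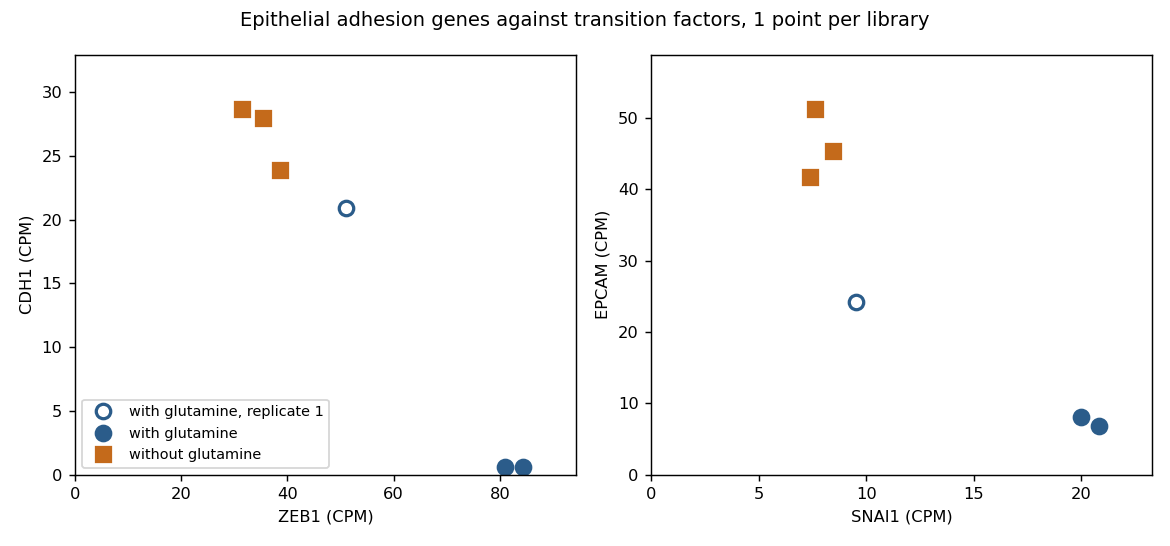
CDH1 against ZEB1 (left) and EPCAM against SNAI1 (right), in CPM on linear axes, 1 point per library; the open circle is replicate 1 with glutamine. The libraries without glutamine have high CDH1 (23.9 to 28.6 CPM) and low ZEB1 (31.4 to 38.6 CPM), replicates 2 and 3 with glutamine the reverse, and replicate 1 with glutamine lies between them at 20.9 and 51.1 CPM.

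Levels can be ordered between genes only per kilobase of transcript. With glutamine the order from the top was CDH2 (76.8 ± 3.47 CPM per kilobase, SD, n = 3), SNAI2 (64.2 ± 4.2), CDH11 (22.6 ± 4.54), CDH6 (16.8 ± 3.56), ZEB1 (13.3 ± 3.38), ZEB2 (12.3 ± 0.664), TWIST1 (11.7 ± 3.90), SNAI1 (9.95 ± 3.73), EPCAM (7.56 ± 5.61) and CDH1 (1.51 ± 2.40). From CDH6 down to EPCAM each neighbour differed by less than the larger of the 2 SDs. Without glutamine EPCAM stood at 26.8 ± 2.76, between CDH11 (31.5 ± 2.47) and CDH6 (24.1 ± 3.35), and CDH1 at 5.49 ± 0.532, above SNAI1 (4.64 ± 0.338) and below ZEB1 (6.48 ± 0.669). SNAI2 was the most abundant of the 5 factors per kilobase in both groups. The order with glutamine is one of means over libraries that differ. In replicate 1 EPCAM, at 14.0 CPM per kilobase, was above ZEB1 (9.42) and SNAI1 (5.65). In replicates 2 and 3 EPCAM, at 4.0 and 4.66, was below SNAI1 (12.3 and 11.9), and ZEB1 (15.5 and 14.9) was above CDH6 (14.9 and 14.5).

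The place of replicate 1 with glutamine was put on an axis for each gene, on which 0 is the mean of the other 2 libraries of its group and 1 the mean of the libraries without glutamine, on log2 CPM. Over the 7 genes whose axis was at least 0.3 long the median was 0.73. TWIST1 was at 1.04, CDH1 at 0.92, SNAI1 at 0.80, CDH11 at 0.73, CDH6 at 0.72, EPCAM at 0.64 and ZEB1 at 0.56. The 3 genes with shorter axes were ZEB2 at 0.65, SNAI2 at 0.59 and CDH2 at 0.41. CDH2 placed this library nearer to its own group, and the other 9 genes placed it nearer to the libraries without glutamine. The median over all 10 genes was 0.68.

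Among 17 tested genes of 18 other cadherins, 10 were higher and 7 lower without glutamine, and the groups did not overlap for 3 higher and 3 lower, a share near that of all genes (17.3% and 16.9%). EdgeR without replicate 1 with glutamine called 9 higher and 5 lower (22.3% and 19.0% of all genes). CDH3, the P-cadherin of epithelia, was at 40.0, 5.75 and 5.69 CPM with and 57.3, 53.0 and 46 CPM without glutamine (edgeR adjusted p 0.189). CDH4, the R-cadherin of the nervous system and kidney, was at 29.8, 2.91 and 2.74 CPM with and 45.4, 43.3 and 35.5 CPM without (edgeR adjusted p 0.204). CDH15, the M-cadherin of muscle, had the opposite pattern, with 1.52, 8.02 and 7.52 CPM against 0.825, 0.421 and 0.293 CPM. Its log2 fold change was -3.44 (edgeR adjusted p 0.0689, SE 0.70).

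The catenins CTNNB1, CTNNA1 and CTNND1 differed little. CTNNB1 (β-catenin) had a log2 fold change of 0.18, CTNNA1 (α-catenin) of 0.03 and CTNND1 (p120 catenin) of -0.03, with overlapping groups and edgeR adjusted p of 0.241, 0.800 and 0.792. Of the 12 catenins and cadherin partners, 10 were higher and 2 lower, with a median log2 fold change of 0.18, and the groups did not overlap for 3 of 12 (34.2% of all genes). EdgeR without replicate 1 with glutamine called 4 higher and 1 lower (22.3% and 19.0% of all genes). CTNND2, a catenin best known from neurons, was at 7.11, 2.69 and 2.70 CPM with and 11.7, 12.5 and 11.2 CPM without glutamine, and was the 1 of 12 called at an adjusted p under 0.1 (0.0742, edgeR), against 14.5% of all genes.

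Epithelial genes as a group had the direction of CDH1 and EPCAM. Of 22 junction and polarity genes, 19 were higher and 3 lower without glutamine, with a median log2 fold change of 0.68 and no overlap for 12 higher and 1 lower (17.3% and 16.9% of all genes). CLDN1, a tight junction claudin, was at 32.4, 1.10 and 1.37 CPM with and 53.7, 64.4 and 52.9 CPM without (edgeR adjusted p 0.215). Of 19 tested genes of epithelial identity and splicing, 18 were higher and 1 lower, with a median of 0.997 (all genes tested, 0.00). The keratin KRT8 was at 93.4, 73.1 and 85.7 CPM with and 129, 148 and 148 CPM without, a log2 fold change of 0.75 (edgeR adjusted p 0.068, SE 0.11). ESRP1, a splicing regulator of epithelial isoforms, was at 1.21, 0.0128 and 0.0382 CPM with and 1.78, 1.86 and 1.52 CPM without (edgeR adjusted p 0.168). At an adjusted p of 0.05 edgeR called 0 genes of these lists with all 6 libraries. The fit without replicate 1 with glutamine called 15 higher and 1 lower junction gene, and 17 higher and 1 lower identity gene, against 22.3% higher and 19.0% lower of all genes.

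Most mesenchymal genes were higher as well. Of 20, 14 were higher and 6 lower without glutamine, with a median log2 fold change of 0.35, and the groups did not overlap for 9 higher and 1 lower (17.3% and 16.9% of all genes). EdgeR without replicate 1 with glutamine called 11 higher and 5 lower (22.3% and 19.0% of all genes). FN1 (fibronectin) was at 224, 244 and 253 CPM with and 358, 484 and 537 CPM without, a log2 fold change of 0.94 (edgeR adjusted p 0.068, SE 0.15). VIM (vimentin) had overlapping groups and a log2 fold change of 0.10 (edgeR adjusted p 0.616). Among 17 tested other transition factors, 10 were higher and 7 lower. All libraries of one group lay apart from the other for 6 higher genes, beside 17.3% of all genes, and 3 lower, beside 16.9%. When replicate 1 with glutamine was left out, edgeR called 7 higher, beside 22.3% of all genes, and 6 lower, beside 19.0%. TWIST2, the paralogue of TWIST1, was at 11.6, 7.43 and 8.13 CPM with and 16.2, 13.9 and 14.1 CPM without (edgeR adjusted p 0.0778), the opposite direction to TWIST1. PRRX1, a homeobox factor of mesenchyme, was at 15.4, 1.78 and 2.16 CPM with and 23.2, 18.3 and 22.8 CPM without (edgeR adjusted p 0.174).

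**Figure D4:**
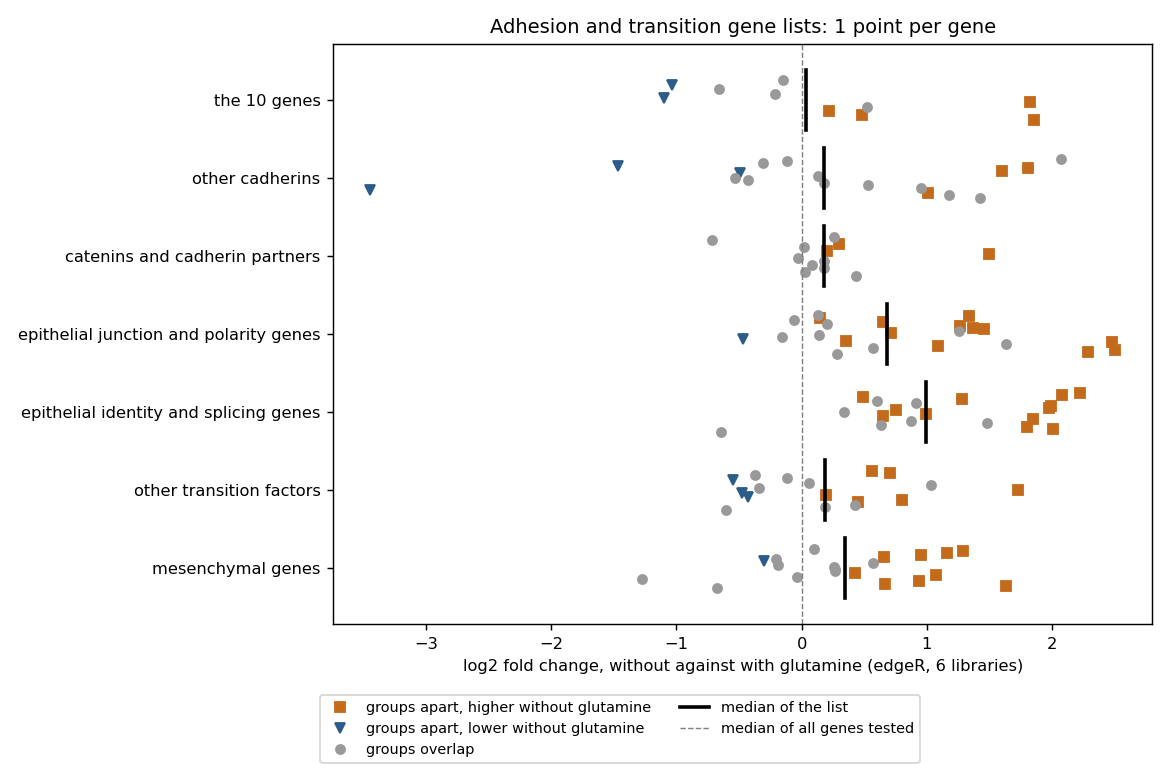
Log2 fold change of every tested gene of 7 lists, without against with glutamine, 1 point per gene; squares and triangles mark genes whose groups do not overlap, the thick line is the list median and the dashed line the median of all genes. The epithelial lists have medians of 0.68 and 0.997 and the mesenchymal list 0.35, while the 10 genes divide into 5 higher and 5 lower.

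Markers of cell types that could carry these genes differed between the libraries too. The 10 markers of early nephron epithelium were all higher without glutamine, 5 without overlap (17.3% of all genes). With all 6 libraries edgeR called 0 of them at an adjusted p under 0.05 or 0.1 (0.00442% and 14.5% of all genes). Without replicate 1 with glutamine it called 9 at an adjusted p under 0.05, all higher (22.3% of all genes). The summed level of the 10 was 1888, 418 and 379 CPM with glutamine and 2700, 2330 and 1986 CPM without. That sum had the pattern of CDH1, with replicate 1 with glutamine near the libraries without. JAG1, PAX8 and CCND1 made up most of it. JAG1 was at 650, 118 and 98.8 CPM with and 903, 854 and 721 CPM without. FGF8 did not have this pattern, at 6.90, 6.68 and 6.66 CPM with and 10.7, 7.66 and 5.56 CPM without. Neural crest markers, which can carry SNAI2 and TWIST1, summed to 294, 400 and 416 CPM with and 253, 183 and 189 CPM without, with 6 of 7 tested lower and the defining gene SOX10 at 0 in all libraries. Endothelial markers summed to 48.0, 95.3 and 81.4 CPM with and 55.2, 35.5 and 40.7 CPM without, with 6 of 8 lower. In that sum KDR was at 24.3, 82.3 and 69.8 CPM with and 13.5, 12.7 and 17.5 CPM without. CLDN5, also on the early nephron list, went the other way, with 13.7, 0.154 and 0.127 CPM against 34.1, 14.3 and 13.3 CPM. Surface ectoderm markers summed to 1.99 to 4.99 CPM in all libraries, with 7 of 8 under 1 CPM. Nephric duct markers, of an epithelium that carries CDH1 and EPCAM, summed to 16.9, 8.85 and 6.64 CPM with and 15.7, 16.1 and 16.7 CPM without, with 4 of 5 tested higher. The tested marker that went the other way was RET, at 7.92, 3.84 and 2.55 CPM with and 3.80, 3.61 and 4.11 CPM without. Of the 8 duct markers, 4 had means under 1 CPM in both groups. Definitive endoderm markers summed to 44.1, 48.4 and 48.4 CPM with and 76.0, 89.3 and 83.6 CPM without, with 4 of 5 tested higher. CXCR4 (40.3 to 46.6 CPM with, 72.8 to 86.1 CPM without) made up most of that sum, and 6 of the 8 had means under 1 CPM in both groups. Of the defining genes, SOX17 was lower, at 0.283, 0.794 and 0.738 CPM with and 0.244, 0.191 and 0.153 CPM without. FOXA2 had 0 counts in every library with glutamine and 3, 3 and 4 without. Paraxial mesoderm markers summed to 160, 185 and 178 CPM with and 237, 203 and 162 CPM without, with 5 of 7 tested lower. FOXC2, a large part of that sum, was at 102, 80.3 and 72.3 CPM with and 137, 113 and 90.3 CPM without. Neural progenitor markers summed to 480 to 523 CPM with and 504 to 664 CPM without, with 5 of 8 lower. Markers of pluripotent cells, which also carry CDH1 and EPCAM, summed to 205, 157 and 142 CPM with and 282, 297 and 234 CPM without glutamine. DPPA4 made up most of that sum, at 113 to 184 CPM with and 212 to 269 CPM without, and the defining genes POU5F1 and NANOG were under 1 CPM in all libraries. The part of these markers in the results was not tested.

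The genes most like each of the 10 were found by the root mean square difference of centred log2 CPM over the 6 libraries, among 11922 genes. For CDH1 they were PLPPR1 (0.0756), DAB1 (0.113) and NMNAT2 (0.135). For EPCAM the nearest was DPP4 (0.0963), for SNAI1 SCML2 (0.0454), for ZEB1 ZNF483 (0.0603) and for TWIST1 SYT6 (0.0430). For the genes with small differences the nearest were PLD3 for CDH2 (0.0153), CCDC106 for CDH6 (0.0294), FAM173B for CDH11 (0.0249), SEC31A for SNAI2 (0.0169) and JAK2 for ZEB2 (0.0297). Many genes share such flat profiles.

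Genes annotated over the 10 can share reads with them, and the strand setting of the counting is not stated. ZEB1-AS1, on the other strand of ZEB1 with 366 exonic bases in common, had 1272, 1356 and 1389 counts with glutamine and 1187, 1002 and 938 without. Its log2 fold change was -0.40 (edgeR adjusted p 0.0762). Its count reached 40.8% of that of ZEB1 in the library where this share was highest. Part of the ZEB1 signal could be of either strand, but this share does not measure how much, which was not tested. AC003986.2, on the other strand of TWIST1 with 141 exonic bases in common, had 82 to 132 counts in a library and at most 9.38% of the TWIST1 count. ZEB2-AS1 had 18 to 41 counts in a library, or at most 0.521% of ZEB2.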

How the data were processed

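The authors deposited raw counts per Ensembl gene for 6 libraries, 60107 gene IDs and 1 column per library. Stranded mRNA libraries were read as single ends, per the labels' protocols. STAR 2.5.2b, cutadapt, Trim Galore, FastQC, DESeq2 and GRCh38 are named in the submitters' processing notes, without their settings. The counting program and its strand setting are not given in the sources used here. A deposited table of normalized values was not used. The headings of the count table read day 0 or day 9, although per the labels every library is of day 9. The description of a sample states its heading, and the directions given depend on this match.

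The test was the quasi-likelihood F test of edgeR 4.0.16 in R 4.3.3 (legacy = FALSE), after filterByExpr and TMM scaling. Adjusted p-values are Benjamini-Hochberg values over the 22613 genes kept, and a gene was called under 0.05. Values set side by side without a named test are descriptions. CPM values use the TMM-scaled library size. DESeq2 1.42.0 and limma 3.58.1 (voom) served as alternatives. The depth of 78220507 to 84746566 counts limits genes with few counts. Transcript length per gene is that of the longest principal protein-coding transcript in GENCODE 29. Merged exonic length was used first and replaced after its values were seen, since it counts exons of rare transcripts, and its values are kept as an alternative.

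All 10 genes are named. From the other lists, the rule names the 3 genes with the largest log2 fold change, among those whose groups did not overlap and whose higher mean was at least 1 CPM, and a set of common markers. Some genes the rule names are given by list counts only. The members and lists were chosen with earlier results of these data known.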

Additional observations from a re-analysis of the deposited data

How the results depend on the processing

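With all 6 libraries edgeR called 1 gene at an adjusted p under 0.05. It called 0 with legacy = TRUE, 0 with library size only, 0 with upper quartile scaling and 2 with no filter, while limma-voom called 0 and DESeq2 3041. Leaving out 1 library gave 0 to 9573 genes, the highest without replicate 1 with glutamine. With the replicate number as a block edgeR called 0 genes. The deviations of same-numbered libraries from their group means had r of -0.021, 0 and 0.028 across genes. Replicate 1 with glutamine dominates the deviations of its group, so these values cannot decide whether the numbers pair libraries. Over 160 alternative values of the 10 fold changes, 0 changed sign and 15 were called, 9 of them without replicate 1 with glutamine and 6 with DESeq2. Of the 10 genes, 5 to 9 had groups that did not overlap: 9 without replicate 1 with glutamine (63.5% of all genes) and 9 without replicate 3 of the group without glutamine (42.6%). The difference in the log2 ratio of CDH1 to CDH2 was 2.20 with a pseudocount of 2 and 3.40 with 0.1, and 2.25 to 4.37 when 1 library was left out. For CDH1 the fold change was 1.8 to 3.74 (log2) under other settings and 1.31 to 5.47 when 1 library was left out. With merged exonic length, chosen first and replaced after seeing the data, the mean ratio of ZEB2 to ZEB1 was 0.586 with and 1.04 without glutamine, in place of 0.964 and 1.71.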
